A study of Homo sapiens with 4 samples.

Results

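Apolipoproteins are the protein coats of plasma lipoproteins, and 10 genes of this system were followed in human liver cancer cells: APOA1, APOA2, APOA4, APOA5, APOB, APOC1, APOC3, APOE, APOM and MTTP. They were chosen by name, with earlier results of these data known. Every probe set (a group of short probes on the array that is read as 1 value) whose only annotated gene symbol was one of these genes was taken. All 10 genes were found, with 20 of the 54613 probe sets of the array table. The cells were HuH7, an established line from a human hepatocellular carcinoma, and RNA was measured on 4 Affymetrix expression arrays.

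The KDM6B knockout group (KO) comprised 2 arrays. These cells had received a vector for a guide RNA against KDM6B and a vector for Cas9, had been selected with G418 and had been taken through limiting dilution, which yielded several knockout subclones. KDM6B encodes a demethylase that removes methyl groups from lysine 27 of histone H3. The KDM6B wild-type group (WT) comprised 2 arrays of HuH7 cells, and the labels do not say whether these cells had been transfected, selected or cloned. Both groups were grown in the same serum-containing medium. The labels also do not say whether the KO arrays came from different subclones or whether arrays of a group came from separate cultures, so the p-values reflect the spread among these arrays alone, and that spread may be technical. The labels name 1 guide and no rescue, so an effect of KDM6B loss and a difference between subclones and the wild-type cells cannot be told apart.

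In the liver, lipoprotein assembly begins in the endoplasmic reticulum, where the microsomal triglyceride transfer protein encoded by MTTP loads lipid onto apolipoprotein B as it is made, and the particle leaves as very low density lipoprotein. Smaller exchangeable apolipoproteins then steer the fate of particles in blood. Some activate or inhibit lipoprotein lipase, some are ligands for uptake receptors, and others are the main proteins of high density lipoprotein. APOA1, APOC3, APOA4 and APOA5 lie next to each other on chromosome 11, and APOE and APOC1 are neighbours on chromosome 19. APOA2, APOB, MTTP and APOM lie alone on chromosomes 1, 2, 4 and 6.

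Values are log2 expression values as deposited, made with RMA, a method that corrects background, brings the arrays to a common distribution and summarises the probes of a set. A difference of 1 is a 2-fold difference, and all differences are KO minus WT. Median values over all probe sets were 5.05 and 5.01 on the KO arrays, against 4.96 and 5.04 on the WT arrays. The deposited distributions were not identical, and that of WT 1 was the widest. Its 25th and 75th percentiles were 3.53 and 7.17, against 3.59 to 3.67 and 7.06 on the other arrays. KO arrays correlated with each other at 0.994 and WT arrays at 0.993, and arrays of different groups at 0.985 to 0.989. KDM6B itself read lower in KO on all of its 5 probe sets (differences of -0.40 to -0.21), none of them called (limma adjusted p 0.230 to 0.608), and a cut need not lower the mRNA. G0S2, the gene in the title of the study, fell by 2.36 (SE 0.16, adjusted p = 0.0040). The HuH7 label was set against 11 hepatocyte markers: ALB (albumin) read 13.82 and 13.96 in KO, against 13.90 and 13.70 in WT, and AFP (alpha-fetoprotein) 13.71 and 13.70 in KO, against 13.80 and 13.72 in WT, both far above the array medians. Of the 11 markers, 5 were called lower in KO and the other 6 were not called, where 5.72% of all genes had a called probe set. Among the 5 was AHSG (fetuin-A), which read 6.13 and 6.14 in KO, against 10.48 and 10.42 in WT, on the dimmer of its probe sets.

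Of the 10 genes, 4 fell in KO, APOC3 the most and then APOA2, APOB and APOM, and none of the 10 genes rose past the test. APOC3 was 2.81-fold lower and the other called probe sets were 1.5- to 1.76-fold lower. The other 6 genes did not pass: APOE, APOC1, APOA4 and MTTP had differences above 0 on each probe set, APOA5 below 0 on both, and APOA1 within 0.04 of 0. A probe set was called at an adjusted p under 0.05 in a limma fit over the whole table. By that rule 4 of 20 probe sets were called, all lower in KO, where 2.91% of all probe sets were called in either direction and 1.63% as lower. Higher calls numbered 0 by limma, where 1.27% of all probe sets were called higher, and at an unadjusted p under 0.05, 3 of the 20 were higher and 7 lower. Of all probe sets, 6.27% were higher and 8.38% lower at that unadjusted threshold. By gene, 4 of 10 had at least 1 called probe set, where 5.72% of all genes did. Bright probe sets are measured more precisely, and of those with a mean of 10 or more 6.63% were called over the whole table, against 4 of 14 here. In RNA from bulk cells, fewer cells expressing a gene and less RNA per cell cannot be told apart.

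**Figure D1:**
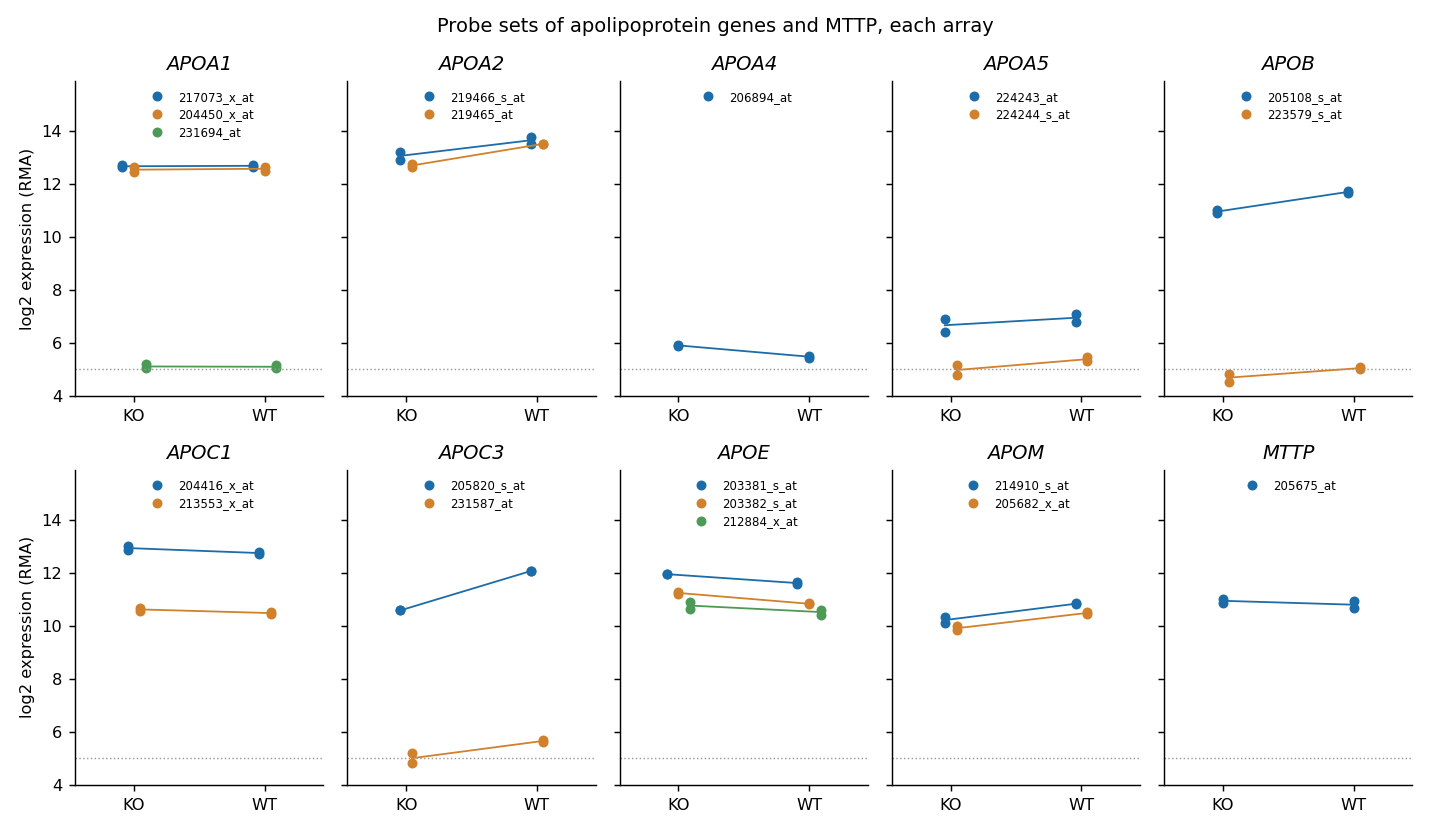
Log2 expression of each probe set of the 10 genes. Points are single arrays, KO left and WT right in each panel, lines join the group means, colours are the probe sets of a gene, and the dotted line is the mean of the 4 array medians. APOC3 on its bright probe set shows the widest gap (10.59 and 10.59 in KO, 12.09 and 12.06 in WT), and APOA1 is level.

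The promoters of APOA2 and APOM are shown because these are the called genes with an entry in the RefSeq promoter table (GRCh38.p14), which held 7 of the 10 genes. APOA1, APOB and APOC3 had no entry. Each sequence runs from 250 bases before to 50 bases after an annotated transcript start, 5′ to 3′ on the strand of the gene. APOA2 is at chr1:161223579-161223878 on the minus strand, and APOM at chr6:31655644-31655943 on the plus strand. Capitals mark the motif matches found.
APOA2: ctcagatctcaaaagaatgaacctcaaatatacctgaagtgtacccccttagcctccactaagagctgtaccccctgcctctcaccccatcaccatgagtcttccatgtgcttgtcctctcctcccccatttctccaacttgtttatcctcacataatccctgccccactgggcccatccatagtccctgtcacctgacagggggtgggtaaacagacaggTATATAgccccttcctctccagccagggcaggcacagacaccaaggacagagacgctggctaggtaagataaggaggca
APOM: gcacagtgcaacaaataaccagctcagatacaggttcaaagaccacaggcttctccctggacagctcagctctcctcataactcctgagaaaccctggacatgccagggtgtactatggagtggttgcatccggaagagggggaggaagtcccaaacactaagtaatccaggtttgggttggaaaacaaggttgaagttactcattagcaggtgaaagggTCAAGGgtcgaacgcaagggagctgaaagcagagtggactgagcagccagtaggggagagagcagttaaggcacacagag

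Both strands were searched for 5 motifs, with no mismatch allowed: a TATA box, and motifs of factors known to act on liver genes. The APOA2 capitals are a TATA box (TATANA, N being any base) whose first base lies 29 bases before the start, and it reads the same on both strands. The APOM capitals are the core of the site of the nuclear receptor NR5A2 (TCAAGG), 30 bases before the start. Of all 34796 distinct promoter windows of this length, 19.1% held the first and 12.3% the second on either strand. A core of the HNF1 site (GTTAAT, in 6.9% of windows), the core of many nuclear receptor sites (AGGTCA, in 13.8%) and an E-box (CACGTG, in 7.2%) were not found in these windows. Among the other members with an entry, APOA5 held all 5 motifs over its pair of windows, 1 of 2 MTTP windows held a TATA box and AGGTCA, a single NR5A2 core match of APOE lay in 2 overlapping windows of its 3, and APOA4 and APOC1 held none of the 5. A match is a string of letters and was not tested as a binding site.

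APOC3 encodes a small apolipoprotein that slows the clearance of triglyceride-rich particles by inhibiting lipoprotein lipase and hindering remnant uptake. Its bright probe set 205820_s_at read 10.59 and 10.59 in KO, against 12.09 and 12.06 in WT. Both KO arrays lay about 1.5 below both WT arrays, and replicates of a group differed by far less than that. The difference was -1.49 (SE 0.08, 95% interval -1.68 to -1.29, adjusted p = 0.0021). The second probe set, 231587_at, was dim and read 4.82 and 5.19 in KO, against 5.63 and 5.68 in WT. The groups did not overlap there either, but the difference of -0.65 (95% interval -1.09 to -0.21) did not pass (adjusted p = 0.149). The intervals of the APOC3 probe sets do not meet, so they gave different sizes for the same direction. The bright one is of the _s_ type, whose probes may also match other transcripts, and the dim one is not.

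APOA5 encodes a scarce plasma protein that promotes lipolysis by lipoprotein lipase, a role opposite to that of APOC3. Its probe set 224243_at read 6.93 and 6.43 in KO, against 6.80 and 7.12 in WT, and the groups overlapped. Probe set 224244_s_at read 4.81 and 5.16 in KO, against 5.48 and 5.32 in WT, with no overlap. Neither passed: the differences were -0.28 (95% interval -0.79 to 0.23) and -0.41 (-0.86 to 0.04), with adjusted p of 0.674 and 0.390. With 1 array left out, the first ran from -0.53 (without KO 1) to -0.03 (without KO 2), and the second from -0.59 (without KO 2) to -0.24 (without KO 1).

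Among the exchangeable apolipoproteins that are ligands or modulators of uptake, APOE binds receptors of the LDL receptor family and APOC1 restrains lipid exchange and remnant uptake. APOE on 203381_s_at read 11.96 and 11.96 in KO, against 11.59 and 11.65 in WT. On 203382_s_at it read 11.29 and 11.21 in KO, against 10.81 and 10.86 in WT. On 212884_x_at it read 10.89 and 10.65 in KO, against 10.43 and 10.62 in WT. On each of the 3 APOE probe sets both KO arrays were above both WT arrays, by little on the last. The APOE differences were 0.34 (SE 0.08), 0.41 (SE 0.09) and 0.25 (SE 0.12), and none passed (adjusted p 0.099, 0.075 and 0.445). APOC1 on 204416_x_at read 13.00 and 12.88 in KO, against 12.73 and 12.78 in WT, and on 213553_x_at 10.68 and 10.58 in KO, against 10.46 and 10.52 in WT. The groups again did not overlap, and the APOC1 differences of 0.19 (95% interval -0.01 to 0.39) and 0.14 (-0.08 to 0.36) did not pass (adjusted p = 0.382 and 0.609). On all 5 probe sets of the APOE and APOC1 pair, the KO arrays thus read higher by a small amount that this design did not call. Over the whole table, 20.5% of probe sets had no overlap with KO higher. All 5 are of the _s_ or _x_ type, whose probes may also match other transcripts.

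APOB encodes the scaffold protein of very low density and low density lipoprotein, of which each particle carries a single copy. Its bright probe set 205108_s_at read 11.02 and 10.92 in KO, against 11.75 and 11.68 in WT. APOB fell 1.67-fold, with a difference of -0.74 (SE 0.09, 95% interval -0.95 to -0.53, adjusted p = 0.016). The dim probe set 223579_s_at read 4.86 and 4.54 in KO, against 5.11 and 5.01 in WT. These values lie close to the array medians, and the difference of -0.36 (95% interval -0.79 to 0.07) did not pass (adjusted p = 0.450). Both APOB probe sets are of the _s_ type.

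MTTP, whose product loads lipid onto APOB, had a single probe set, 205675_at. It read 10.87 and 11.03 in KO, against 10.94 and 10.67 in WT, and the groups overlapped. The difference was 0.15 with a 95% interval of -0.15 to 0.45 (adjusted p = 0.727), and ran from 0.01 (without WT 2) to 0.29 (without WT 1) with 1 array left out. The 95% interval from all arrays does not meet that of the bright APOB probe set, but it meets that of the dim one (-0.79 to 0.07). P4HB, chosen here for its role as the disulphide isomerase that forms the other subunit of the transfer protein, had differences of 0.02, 0.09 and 0.17 on 3 probe sets, none called (adjusted p 0.437 to 0.981).

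High density lipoprotein is built mainly on the products of APOA1 and APOA2, and in KO APOA2 fell while APOA1 did not pass the test. APOA2 on 219465_at, which is not of the _s_ or _x_ type, read 12.66 and 12.76 in KO, against 13.52 and 13.54 in WT. APOA2 fell 1.76-fold there, with a difference of -0.81 (SE 0.08, 95% interval -1.01 to -0.62, adjusted p = 0.011). On 219466_s_at it read 12.92 and 13.22 in KO, against 13.80 and 13.53 in WT, again without overlap, and the difference of -0.59 (SE 0.14) did not pass (adjusted p = 0.098). The wider replicate spread on that probe set (SD 0.21 in KO and 0.19 in WT, n = 2 each) goes with its larger standard error.

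APOA1 gave a different picture on its 3 probe sets. It read 12.72 and 12.64 in KO, against 12.66 and 12.74 in WT, on 217073_x_at. On 204450_x_at it read 12.65 and 12.46 in KO, against 12.51 and 12.66 in WT. On the dim 231694_at it read 5.20 and 5.05 in KO, against 5.17 and 5.06 in WT. The groups overlapped on all 3, and the differences of -0.02, -0.04 and 0.01 did not pass (adjusted p 0.959 to 0.996). Both bright APOA1 probe sets are of the _x_ type, whose probes may also match other transcripts. The brightest APOA1 probe set allowed a difference of -0.21 to 0.18 (95% interval), which does not meet the interval of either APOA2 probe set. The APOA1 intervals on 204450_x_at (-0.29 to 0.22) and 231694_at (-0.37 to 0.39) do meet that of APOA2 on 219466_s_at (-0.92 to -0.25). They do not meet that of APOA2 on 219465_at.

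APOM encodes a lipocalin that carries sphingosine 1-phosphate on high density lipoprotein. It read 9.99 and 9.83 in KO, against 10.47 and 10.52 in WT, on 205682_x_at. APOM fell 1.5-fold on that probe set, with a difference of -0.58 (SE 0.10, adjusted p = 0.043). On 214910_s_at it read 10.35 and 10.10 in KO, against 10.82 and 10.85 in WT, a difference of -0.62 (SE 0.11) that fell just short of the threshold (adjusted p = 0.051). The APOM probe sets agree within their errors, and both are of types that may cross-hybridise. APOA4, best known as a protein of intestinal chylomicrons, had 1 probe set, 206894_at, which read 5.91 and 5.93 in KO, against 5.52 and 5.46 in WT. Its difference of 0.43 (SE 0.14, 95% interval 0.09 to 0.76) did not pass (adjusted p = 0.211), and the levels were less than 1 above the array medians.

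**Figure D2:**
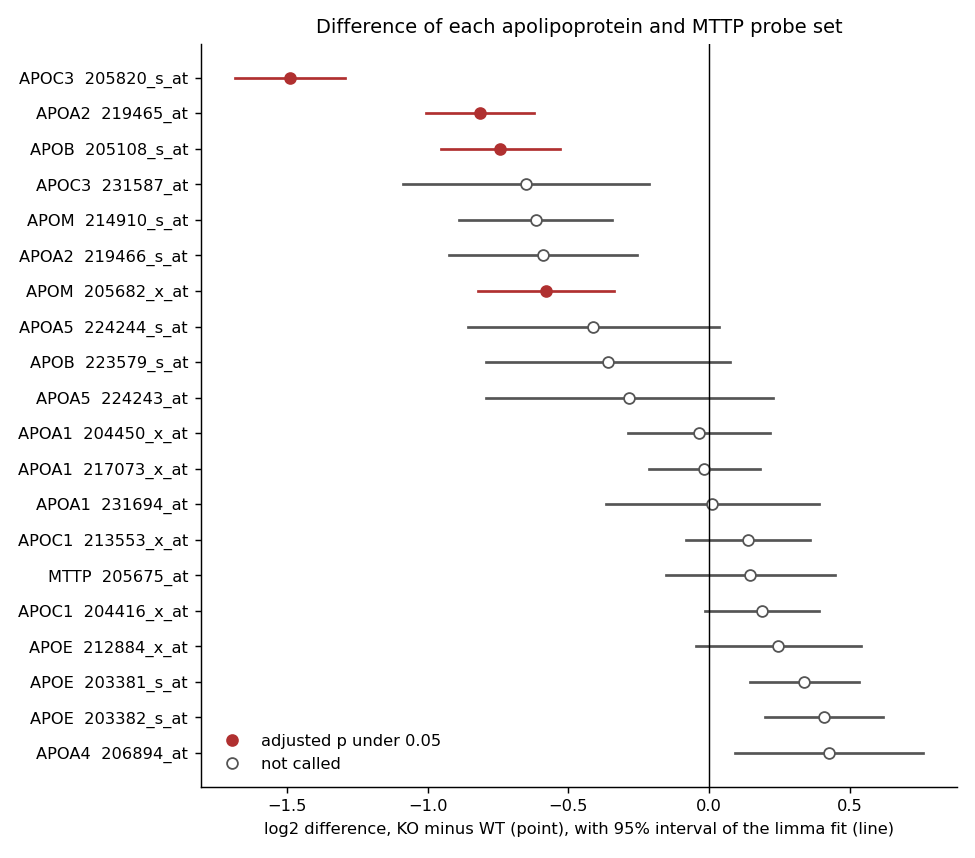
Log2 difference, KO minus WT, of each of the 20 probe sets, ordered by size. Points are the limma estimates, lines their 95% intervals, and filled red points the 4 called probe sets. These 4 belong to APOC3, APOA2, APOB and APOM and run from -1.49 to -0.58, and the highest point is APOA4 at 0.43.

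Seen together, the groups did not overlap on 15 of 20 probe sets, with KO lower on 9 and higher on 6. Over the whole table, 40.5% of probe sets had no overlap, 19.9% with KO lower and 20.5% with KO higher. Probe sets of a gene had the same sign in 9 of 10 genes, the exception being APOA1, whose differences all lay within 0.04 of 0. The 9 include APOA4 and MTTP, which had 1 probe set each and so could not disagree. The median difference over the 20 probe sets was -0.16, beside 0.01 over all 54613. Precision differed with brightness: standard errors were 0.08 to 0.14 on the 14 probe sets with a mean of 10 or more, and 0.14 to 0.21 on the 6 dimmer ones. Of the 6 dim probe sets 0 were called by limma and 2 had an unadjusted p under 0.05. All 4 calls ended when any 1 of the 4 arrays was left out, when 0 of the 20 probe sets were called by limma (8 or 9 had an unadjusted p under 0.05, where 8.55% to 13.1% of all probe sets did), while these differences kept their sign, with APOA2 between -0.87 and -0.76, APOB between -0.79 and -0.69 and APOM between -0.66 and -0.50. With no intensity trend in the variance prior, 1 of the 20 was called, the bright APOC3 probe set (adjusted p = 0.016).

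Within the chromosome 11 cluster, APOC3 fell and the gene next to it, APOA1, did not pass the test. In RefSeq order the cluster runs APOA5, APOA4, APOC3, APOA1, with differences on the brightest probe sets of -0.28, 0.43, -1.49 and -0.02. The interval of the brightest APOC3 probe set (-1.68 to -1.29) met none of the other 3, the nearest being that of APOA5 (-0.79 to 0.23). The interval of the dim APOC3 probe set (-1.09 to -0.21) did meet that of APOA5. It also just touched that of APOA1 (-0.21 to 0.18), and did not meet that of APOA4 (0.09 to 0.76). Of the 5 nearest measured genes on each side, 1 of 10 was called, ZPR1 next to APOA5, which encodes a zinc finger protein and fell by 0.76 (SE 0.10, adjusted p = 0.021). The 10 had a median of -0.09. Over all genes, 5.72% had a called probe set. At an unadjusted p under 0.05 by limma, 0 of the 10 neighbours were higher and 1 was lower in KO. At that threshold, 10.7% of all genes had a probe set higher and 14.7% a probe set lower. Around APOE and APOC1 on chromosome 19, 0 of 10 neighbours were called by limma (3 had an unadjusted p under 0.05), with a median of -0.01 and a range of -0.53 to 0.33.

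**Figure D3:**
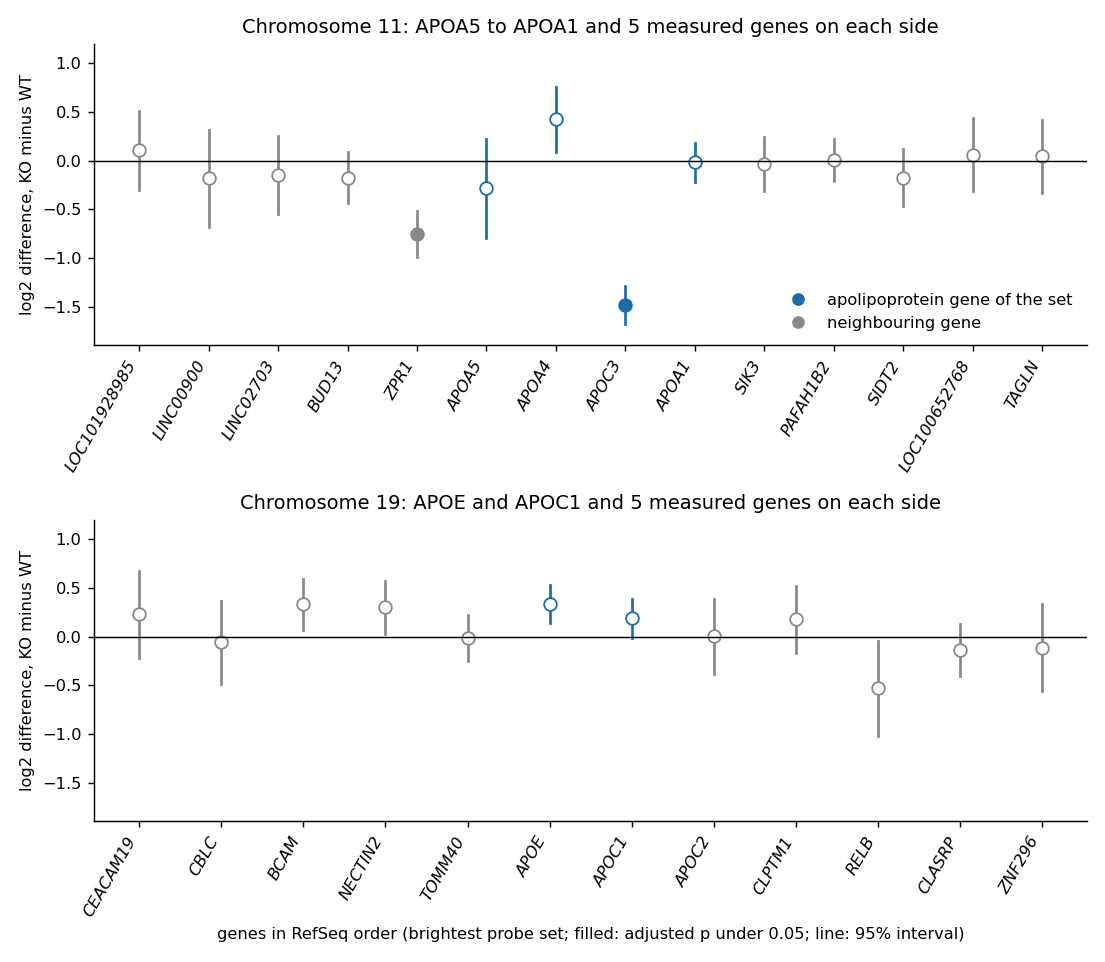
Log2 difference, KO minus WT, of the brightest probe set of each gene in the chromosome 11 and chromosome 19 clusters and of 5 measured genes on each side. Genes are in RefSeq order along the x axis without distances, lines are 95% intervals, and filled points are called. APOC3 stands at -1.49 beside APOA1 at -0.02, and APOE and APOC1 lie at 0.34 and 0.19.

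The genes around the single loci were counted in the same way. Of 10 neighbours each, 0 were called by limma around APOB, APOM, APOA2 and MTTP, where 2, 2, 4 and 3 had an unadjusted p under 0.05. Over all genes, 5.72% had a called probe set. At the unadjusted threshold, 10.7% of all genes had a probe set higher and 14.7% a probe set lower in KO. Medians were -0.09 around APOB, -0.02 around APOM and -0.02 around MTTP. Around APOA2 the median was -0.22, and the 4 neighbours with an unadjusted p under 0.05 were each lower in KO, by up to 0.52 (USP21, a ubiquitin protease gene, named after its values were seen). Whether the locus as a whole bears on the APOA2 fall was not tested.

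Genes that act with these apolipoproteins were counted in 5 further lists, each against all 19775 genes. Of all genes, 491 had a probe set called higher and 641 a probe set called lower, with a median over brightest probe sets of 0.01. At an unadjusted p under 0.05, 10.7% of all genes had a probe set higher and 14.7% a probe set lower in KO, for comparison with each list. Of 14 other measured apolipoprotein genes, 1 rose, 0 fell by limma and 13 did not pass, with a median of -0.02 (2 were higher and 1 lower at an unadjusted p under 0.05). APOH, which encodes beta-2-glycoprotein I, read 12.64 and 12.64 in KO, against 11.94 and 11.83 in WT. It rose by 0.76 (SE 0.08, adjusted p = 0.013) on that probe set, 1 of 2. The dimmer APOH probe set gave 0.51 and was not called (adjusted p = 0.165). CLU (clusterin), chosen after its values were seen as the other bright gene of that list, read 11.23 and 11.46 in KO, against 11.84 and 11.67 in WT, and did not pass (difference -0.41, adjusted p = 0.155).

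For particle assembly and export from the endoplasmic reticulum 23 genes were measured, and their median difference was -0.17. Of these, 2 rose, 3 fell and 18 were not called (4 were higher and 9 lower at an unadjusted p under 0.05). CES1, a carboxylesterase that mobilises triglyceride, rose by 1.06 (SE 0.10, adjusted p = 0.0089), and SEC23A, a coat protein of export vesicles, rose by 0.70 on 1 of 2 probe sets (SE 0.10, adjusted p = 0.026). The brighter SEC23A probe set gave 0.41 and was not called (adjusted p = 0.361). PLTP, the phospholipid transfer protein, fell by 0.85 (SE 0.12, adjusted p = 0.026). MIA3, the cargo receptor TANGO1 for large particles, fell by 0.72 on 1 of 4 probe sets (adjusted p = 0.039). HSPA5, the chaperone BiP, fell by 0.68 on 1 of 2 probe sets (adjusted p = 0.042). The brighter HSPA5 probe set missed the threshold (difference -0.35, adjusted p = 0.136).

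Receptors and uptake were covered by 13 measured genes with a median of 0.00, of which 0 rose, 1 fell and 12 were not called (0 genes were higher and 3 lower at an unadjusted p under 0.05 by limma). LRP8, a receptor for APOE-containing particles, fell by 0.93 on 1 of 3 probe sets (SE 0.13, adjusted p = 0.029). Plasma lipoprotein remodelling was covered by 14 measured genes with a median of -0.08, of which 0 rose by limma, 4 fell and 10 were not called (2 were higher and 5 lower at an unadjusted p under 0.05). ABCG1, a cholesterol exporter, fell by 1.08, PON1 (paraoxonase of high density lipoprotein) by 1.07 and LIPG (endothelial lipase) by 1.00, with adjusted p of 0.033, 0.014 and 0.021. The fourth was PLTP, which both lists hold. ABCG1 was called on 1 of 4 probe sets and PON1 on 1 of 2, and the other probe sets of both also read lower in KO.

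The list of transcription factors known to act on apolipoprotein genes had 28 measured genes with a median of -0.11. Of these, 2 rose, 2 fell and 24 were not called. At an unadjusted p under 0.05, 5 were higher and 11 lower, where 10.7% of all genes had a probe set higher and 14.7% a probe set lower. NR5A2, the nuclear receptor LRH-1, rose by 0.85 (SE 0.12, adjusted p = 0.024) on 1 of 4 probe sets, all of them higher in KO. TCF7L2, a Wnt effector, rose by 0.70 (SE 0.09, adjusted p = 0.021) and was called on 4 of 7 probe sets. MLXIPL, the carbohydrate-responsive factor ChREBP, fell by 0.91 (SE 0.14, adjusted p = 0.031), and CEBPB by 0.59 (SE 0.09, adjusted p = 0.029). CEBPA, chosen for its role in hepatocytes, read 11.64 and 11.46 in KO, against 11.59 and 11.80 in WT, and did not pass (adjusted p = 0.709).

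Other hepatocyte and intestinal genes moved beside the apolipoproteins. Over all genes, 5.72% had a called probe set, and at an unadjusted p under 0.05, 10.7% had a probe set higher and 14.7% a probe set lower in KO. Of 11 hepatocyte markers, 5 fell, 0 rose and 6 did not pass by limma (0 higher and 5 lower at an unadjusted p under 0.05), with summed linear signals over the brightest probe sets of 55313 and 56490 in KO, against 64322 and 60484 in WT. AHSG (fetuin-A) fell by 4.02, ASGR1 (asialoglycoprotein receptor) by 2.40 and TAT (tyrosine aminotransferase) by 1.05 on 1 of 3 probe sets with 1 of opposite sign, while TF (transferrin) and TTR (transthyretin) gave differences of 0.02 and 0.01 and did not pass. Of 12 enterocyte markers, 5 rose, 1 fell and 6 did not pass, with sums of 5663 and 5718 in KO, against 5165 and 4943 in WT. SI (sucrase-isomaltase) rose by 3.74, CDH17 (cadherin 17) by 1.55 and MUC13 by 1.06 on 1 of 2 probe sets, and RBP2 fell by 0.83. The other MUC13 probe set gave 0.73 and was not called (adjusted p = 0.102). FABP2, the intestinal fatty acid binding protein, was below the 25th percentile of every array. The part of these shifts in the apolipoprotein changes was not tested.

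Markers of other cell types were mostly dim. Of 8 fibroblast and 6 stellate cell markers 0 were called by limma (1 of each list had an unadjusted p under 0.05). Of 7 endothelial markers PECAM1 fell by 0.76 on 1 of 5 probe sets, with 1 of opposite sign. Of 5 leukocyte markers LYZ fell by 2.02 on 1 of 2 probe sets, and the other 4 markers were not called. The brighter LYZ probe set, which enters the leukocyte sum, read 8.95 and 9.75 in KO, against 11.27 and 10.59 in WT. Its difference of -1.58 did not pass (adjusted p = 0.069). Summed linear signals were 191 to 220 in KO, against 244 to 289 in WT, for the endothelial list, 735 to 1081 in KO, against 1780 to 2659 in WT, for the leukocyte list, 354 to 355 in KO, against 299 to 344 in WT, for the fibroblast list, and 186 to 189 in KO, against 181 to 183 in WT, for the stellate list.

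The profile most like that of APOC3 was sought over the 4 arrays among the brightest probe sets of all genes, after each profile was centred on its mean. The 3 nearest were OSMR (the oncostatin M receptor), SERPINC1 (antithrombin, a liver-made inhibitor of clotting) and NAT8B, at root mean square distances of 0.03, 0.03 and 0.04 on the log2 scale. OSMR read 6.86 and 6.86 in KO, against 8.44 and 8.39 in WT. SERPINC1 read 7.63 and 7.68 in KO, against 9.15 and 9.06 in WT. NAT8B read 5.75 and 5.65 in KO, against 7.22 and 7.21 in WT. These are likenesses of size over 4 arrays, and any gene with a fall near 1.5 and little replicate spread would rank high.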

How the data were processed

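The deposited table holds log2 expression values for 54613 probe sets on 4 arrays, made by the authors with RMA and the affy package per the submitters' processing notes. The sources used here give no versions and no detection calls. RMA's quantile step would remove a change shared by most genes. Per the labels' protocols, total RNA was DNase-treated and amplified with a 3′ IVT kit. Probe sets were named through the platform annotation: 41091 had 1 symbol, 1801 several and 11721 none, and 41037 were matched to RefSeq (GRCh38.p14) by Entrez identifier.

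KO was compared with WT in limma 3.58.1 (R 4.3.3; lmFit, eBayes with intensity trend) on all probe sets, two-sided, with Benjamini-Hochberg adjustment over the table, and 0.05 was the threshold for a call. Residual degrees of freedom were 2 and prior ones 3.89. No dim probe set was removed. With 2 arrays a group, exact permutation can reach no p below 0.333 and was not run. The number of arrays limits the precision.

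Members, gene lists and motifs were chosen with earlier results of these data known. Named genes are all members, KDM6B, G0S2, up to 3 called genes of each list in each direction, called neighbours, and 3 nearest profiles to the member with the largest difference; exceptions are stated. Figures used Python 3.11.15, NumPy 2.4.6, pandas 2.3.3 and matplotlib 3.10.9.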

Additional observations from a re-analysis of the deposited data

How the results depend on the processing

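Among the 20 probe sets, 4 were called, and this became 1 (APOC3) without the intensity trend, 1 of 6 (APOA2) without probe sets of the _s_ and _x_ types, where fewer were tested, and 8 at an adjusted p under 0.10, of which 2 (APOE) were higher in KO and 6 lower. Called genes went with them, from 4 to 1 and 1 in the first pair of settings. Calls over the whole table numbered 1587, and 641, 831 and 2954 in these settings. Leaving out 1 array, which takes the spread of the single remaining array from the other group, gave 0 called members under each omission, 0 called genes among them, and 0 to 82 calls over the table; with either KO array left out the table gave 0 by limma (4670 and 4947 at an unadjusted p under 0.05). Fewer arrays entered those fits.

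Deviations of arrays with the same number correlated at -0.50 over all probe sets, so the numbers were not taken as pairing. With the number as a replicate block 77 probe sets were called and 0 of the members (8 at an unadjusted p under 0.05 by limma), hence 0 genes. The crossed replicate block, chosen after seeing the data, gave 4349 calls and 10 among the members, 4 of them higher in KO (the 3 APOE probe sets and APOC1 on 204416_x_at) and 6 lower.

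APOA1 changed sign where its difference was near 0: with 1 array left out, its differences ran from -0.130 to 0.059 on 204450_x_at, from -0.057 to 0.023 on 217073_x_at and from -0.063 to 0.087 on 231694_at, positive on the first pair without KO 2 or WT 2, and negative on the third without KO 1 or WT 2. On 231694_at it was -0.010 with quantile normalization repeated and -0.019 with median centring. Among other uncalled probe sets, APOE on 212884_x_at ran from 0.13 to 0.36, APOC1 on 213553_x_at from 0.09 to 0.19 and APOB on 223579_s_at from -0.51 to -0.20. The second APOM probe set (adjusted p = 0.051) passed with 1 probe set per gene (0.033), without dim probe sets (0.038) and with median centring (0.044), and the called APOM probe set did not pass with quantile normalization repeated (0.053). APOE on 203382_s_at passed without dim probe sets (0.048). For changes with a setting whose construction does not show it, the cause was not tested. Dim probe sets limit APOA4, APOA5 and the second probe sets of APOB and APOC3.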
